A study of Homo sapiens with 20 samples.

Results

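Ricolinostat and romidepsin were compared after 5 h in OPM2 cells. OPM2 is a cell line from a human multiple myeloma that carries the 4;14 translocation and with it high FGFR3 and NSD2. The comparison rests on 4 of the 20 libraries of the study: 2 of cells given 100 nM ricolinostat for 5 h and 2 of cells given 10 nM romidepsin for 5 h. All genes that passed a filter on low counts are described, 20957 of the 78932 gene identifiers counted. The 2 libraries of cells given the vehicle DMSO are used to place each difference, and the 2 h and 20 h libraries of both inhibitors at the same doses show how it stood at other times. All groups are the same line, grown in RPMI 1640 medium with serum and labelled as bone marrow, and each group has 2 independent biological replicates per the study design. The doses differ, so each difference is between 1 dose of each inhibitor and not between the inhibitors at a matched dose. The ricolinostat dose is 100 nM in the titles, the treatment protocol and the design, while the treatment field of those samples reads 10 nM. No harvest time is given for DMSO, and the batch field reads unknown.

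Histone deacetylases (HDACs) remove acetyl groups from histones and other proteins, and the class I enzymes HDAC1, HDAC2 and HDAC3 work inside corepressor complexes built on SIN3A, NuRD, CoREST and NCOR. Ricolinostat is a hydroxamic acid that prefers HDAC6, a mainly cytoplasmic enzyme that deacetylates tubulin and HSP90, and it also reaches class I enzymes as its dose is raised. Romidepsin is a cyclic depsipeptide prodrug directed at class I HDACs. Myeloma cells are malignant plasma cells that depend on IRF4 and MYC, and their secretion of immunoglobulin loads the chaperone, proteasome and autophagy systems.

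Total counts were 27405987 and 22211037 in the ricolinostat libraries, 25116361 and 20918293 in the romidepsin libraries, and 25313510 and 28656570 in the DMSO libraries. The ricolinostat replicates differed from each other more than most pairs did, with a chi-square of 4.25 per degree of freedom over genes, against 2.93 for the romidepsin pair and 2.6 for the DMSO pair. Several counts below are also given without ricolinostat replicate 1, though the chi-square does not say which replicate deviates. Leaving out the other replicate can move a list the other way. The median log2 fold change, ricolinostat over romidepsin, of cytosolic ribosomal protein genes was -0.02 without replicate 1 and 0.11 without replicate 2. For nuclear oxidative phosphorylation genes it was -0.02 and 0.12. The 9 plasma cell and myeloma markers SDC1, TNFRSF17, CD38, IRF4, PRDM1, XBP1, MZB1, FGFR3 and NSD2 were present in all 6 libraries, the lowest being CD38 at 8.15 to 11.6 CPM (counts scaled to a common library size) and the highest FGFR3 at 1934 to 3551 CPM. Markers of other cells were near 0. The 12 T and NK cell markers summed to 0.308 and 0.749 CPM with ricolinostat, 0.513 and 0.278 CPM with romidepsin, and 0.381 and 0.335 CPM with DMSO. The 10 myeloid markers summed to 2.04 and 2.11 CPM with ricolinostat, 1.18 and 1.07 CPM with romidepsin, and 0.551 and 0.745 CPM with DMSO. The 12 stromal and epithelial markers summed to 1.69 and 1.97 CPM with ricolinostat, 5.68 and 3.80 CPM with romidepsin, and 5.21 and 4.62 CPM with DMSO, mostly PECAM1, and 8 of them had no count in any of the 6 libraries. The 6 erythroid markers summed to 0.500 and 0.655 CPM with ricolinostat, 0.513 and 1.16 CPM with romidepsin, and 1.14 and 0.447 CPM with DMSO.

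Of the 20957 genes tested, 7075 (33.8%) differed between ricolinostat and romidepsin at an adjusted p under 0.05, where p is that of edgeR's quasi-likelihood F test with Benjamini-Hochberg adjustment over all genes tested. With ricolinostat 4021 genes were higher (19.2%) and 3054 were lower (14.6%), and these words are used below only of genes that passed. At least 2-fold changes made up 1147 of the calls (5.47% of genes), 270 higher (1.29%) and 877 lower (4.18%). Most differences were therefore small, and the large ones lay mainly on the lower side, in genes under 50 CPM. By level in an inhibitor group, 84 were higher and 287 lower by at least 2-fold under 1 CPM. There were 99 and 425 at 1 to 5 CPM and 69 and 159 at 5 to 50 CPM. From 50 CPM upward the side turned, with 18 higher and 6 lower by at least 2-fold. The higher calls were 56.8% of all calls under TMM scaling but 41.1% when counts were scaled by library size alone, with 2928 genes higher and 4198 lower, a change that goes with a shift of the median gene by -0.09 on the log2 scale. Without ricolinostat replicate 1, there were 2737 higher and 3003 lower genes, so that the majority turned to lower. Levels are relative to the TMM-scaled total count of the tested genes in a library, in which fewer cells in a certain state and less RNA per cell cannot be told apart.

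Compared with DMSO, which both contrasts share, ricolinostat had 3935 genes higher (18.8%) and 3205 lower (15.3%), and romidepsin had 2734 higher (13%) and 3464 lower (16.5%). Without ricolinostat replicate 1, ricolinostat had 2466 genes higher and 4036 lower than DMSO. With library size alone, romidepsin had 4212 genes higher and 1699 lower than DMSO, so its split depends on the scaling. The genes higher with ricolinostat than with romidepsin had a median log2 fold change of 0.25 for ricolinostat over DMSO and -0.14 for romidepsin over DMSO. Those lower with ricolinostat had medians of -0.41 for ricolinostat over DMSO and 0.24 for romidepsin over DMSO. The 877 genes lower by at least 2-fold had medians of -0.80 and 0.89 on those same scales. In the medians of each class under TMM scaling, the inhibitors stood on opposite sides of DMSO. The classes were chosen on the difference between the inhibitors, which by itself sets these medians apart. With library size alone, the median gene of romidepsin over DMSO moved from 0.02 to 0.14, and the class medians were not taken under that scaling. List and span values relative to DMSO below are likewise from TMM scaling only.

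**Figure D1:**
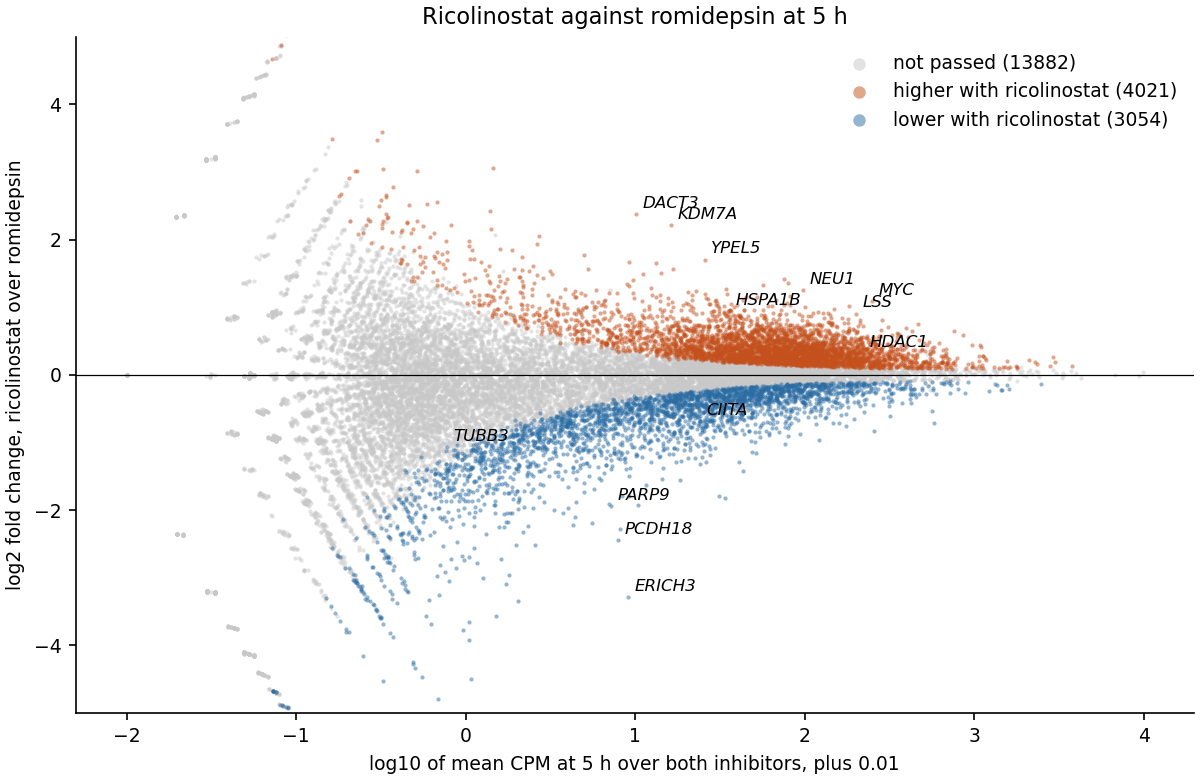
Each point is 1 of 20957 genes, with the log10 of its mean CPM over both inhibitors at 5 h on the x axis and its log2 fold change, ricolinostat over romidepsin, on the y axis. The 4021 higher genes lie mainly at high levels and the 3054 lower genes reach far into low levels, and 106 genes beyond a log2 fold change of 5 in either direction are not drawn.

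The balance of calls differed with expression level and gene class. Among 5013 genes with at least 50 CPM in an inhibitor group, 2505 were higher and 784 lower, and with library size alone 1814 were higher and 1313 lower. Among 3411 genes between 1 and 5 CPM, 181 were higher and 641 lower, and with library size alone 137 and 788. Genes of at least 50 CPM thus leaned to ricolinostat and low genes to romidepsin under both scalings. Protein-coding genes had 3868 of 13609 higher (28.4%) and 2352 lower (17.3%), the background for the gene lists below. This background is not matched for level. The 5013 genes of at least 50 CPM, 2505 of them higher, had a median log2 fold change of 0.127. A share of higher genes above 28.4% therefore does not by itself set a list of highly expressed genes apart from other genes of that level. The lists were not tested against genes of their own level. Of 3351 long non-coding RNAs 65 were higher (1.94%) and 476 lower (14.2%), with a median log2 fold change of -0.31. Their share of lower calls was near that over all genes, and their share of higher calls was the smaller one. The annotation of counting is not given, and without a stated strand setting an antisense RNA cannot be told from its partner gene.

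Longer genes were more often lower with ricolinostat. Of the 587 protein-coding genes that span at least 300 kb with introns, 49 were higher (8.35%) and 182 were lower (31.0%), with a median log2 fold change of -0.28. Of the 2574 that span under 10 kb, 764 were higher (29.7%) and 273 lower (10.6%), with a median of 0.10. The classes between them, from 10 to 30 kb up to 100 to 300 kb, had 13.7%, 18.4% and 25.5% of genes lower, so the share of lower genes grew with each step of span. With library size alone the lower share still grew, at 15.9% under 10 kb and 39.7% from 300 kb. Within genes of at least 50 CPM the lower share was 8.83% under 10 kb and 36.9% from 300 kb, and within genes of 5 to 50 CPM it was 16.8% and 41.6%. Relative to DMSO under TMM scaling, genes from 300 kb had a median log2 fold change of -0.12 for ricolinostat and 0.10 for romidepsin. Genes under 10 kb had 0.03 for ricolinostat and -0.08 for romidepsin. The side of DMSO on which such small medians fall depends on the scaling, and library size alone was not used for them. These shares are descriptions with no test, and span is from GENCODE 29.

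**Figure D2:**
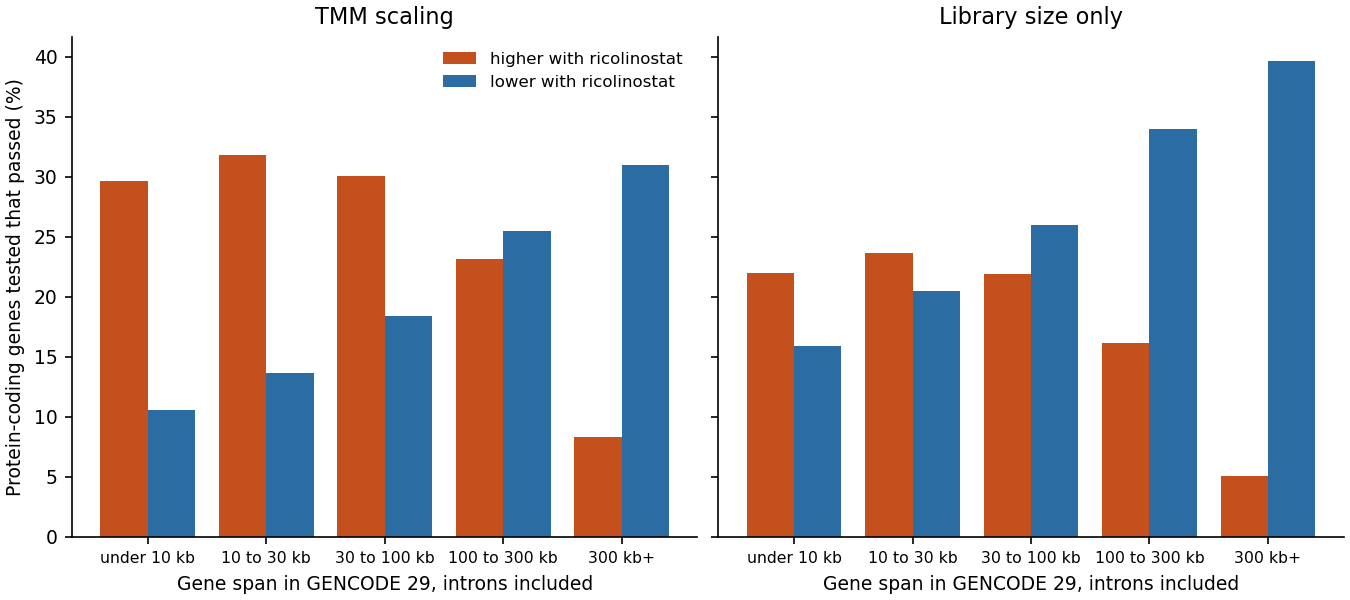
Bars give the percentage of tested protein-coding genes that were higher or lower with ricolinostat than with romidepsin at 5 h, by gene span, under TMM scaling on the left and library size alone on the right. The lower share grows from 10.6% under 10 kb to 31.0% from 300 kb with TMM and from 15.9% to 39.7% with library size alone.

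The 10 largest rises with ricolinostat over romidepsin were in genes that were higher with ricolinostat than with DMSO, and romidepsin raised none of them relative to DMSO. DACT3, a scaffold that restrains WNT signalling, had 13 and 21 CPM with ricolinostat, 3.27 and 3.15 CPM with romidepsin and 3.51 and 3.95 CPM with DMSO. Both ricolinostat libraries stood above all others, though far from each other, and the log2 fold change was 2.38 ± 0.29 (SE, n = 2 per group, as for all values below; adjusted p = 1.6e-05). Each SE comes from the model of all 20 libraries and is not the spread of the 2 libraries of a group. KDM7A (chr7:140084746-140177035, GRCh38), a demethylase of the repressive histone marks H3K9me2 and H3K27me2, had 26.6 and 27 CPM with ricolinostat, 5.17 and 6.4 CPM with romidepsin and 7.66 and 8.5 CPM with DMSO, a log2 fold change of 2.22 ± 0.13 (adjusted p = 3.5e-28). Relative to DMSO it rose by 1.72 on the log2 scale with ricolinostat and fell by 0.49 with romidepsin. YPEL5, a subunit of the CTLH ubiquitin ligase, had 39.2 and 40 CPM with ricolinostat, 12.5 and 11.8 CPM with romidepsin and 17.4 and 16.8 CPM with DMSO, a log2 fold change of 1.7 ± 0.10 (adjusted p = 1.2e-26). Its relative YPEL3 was higher as well, at 1.5 ± 0.11 (adjusted p = 7.4e-22). For both, the ricolinostat libraries lay above DMSO and the romidepsin libraries below it.

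PPARA, the fatty acid-sensing nuclear receptor, had 16 and 16.7 CPM with ricolinostat, 5.72 and 5.84 CPM with romidepsin and 6.22 and 6.9 CPM with DMSO (log2 fold change 1.5 ± 0.14, adjusted p = 6.6e-17). GNB1L had 19.8 and 20.5 CPM with ricolinostat, 6.63 and 6.07 CPM with romidepsin and 13.6 and 13.8 CPM with DMSO, so that ricolinostat raised it and romidepsin lowered it relative to DMSO (log2 fold changes 0.55 and -1.11). The other members of the 10 largest rises were UBTD1, ANKRD42, MOK and NATD1, with log2 fold changes of 1.78, 1.67, 1.57 and 1.56. In none of these 10 genes did the ricolinostat and romidepsin libraries overlap, which the choice of genes required. These libraries did not overlap in 12671 of all 20957 genes tested (60.5%) and in 7025 of the 7075 that passed (99.3%). A lack of overlap between them therefore adds little to a call.

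The 10 largest falls were in genes that rose with romidepsin relative to DMSO, and ricolinostat lowered 8 of them relative to DMSO. ERICH3 (chr1:74568111-74673738, GRCh38), a glutamate-rich protein known from ciliated cells, had 1.77 and 1.59 CPM with ricolinostat, 17.4 and 15.7 CPM with romidepsin and 5.63 and 4.32 CPM with DMSO. The 3 groups did not overlap, and the log2 fold change was -3.29 ± 0.23 (adjusted p = 1.6e-25). PCDH18, a protocadherin adhesion protein, had 2.12 and 2.81 CPM with ricolinostat, 12.6 and 14.1 CPM with romidepsin and 0.762 and 0.745 CPM with DMSO. It rose with both inhibitors, by 1.69 with ricolinostat and 4.14 with romidepsin on the log2 scale, and the difference between them was -2.45 ± 0.22 (adjusted p = 2.7e-18). RGS1, a brake on chemokine receptor signalling in B-lineage cells, had 2.96 and 2.57 CPM with ricolinostat, 13.6 and 13.4 CPM with romidepsin and 4.49 and 5.33 CPM with DMSO (log2 fold change -2.28 ± 0.17, adjusted p = 6.9e-24). AREG, a ligand of the EGF receptor, had 1.92 and 2.11 CPM with ricolinostat, 9.31 and 9.04 CPM with romidepsin and 2.67 and 3.65 CPM with DMSO (log2 fold change -2.19 ± 0.17, adjusted p = 1.0e-23). In RGS1 and AREG, ricolinostat lay below DMSO and romidepsin above it. The remaining falls were the prolactin receptor PRLR at -2.23, OTOGL at -2.1, the complement receptor C3AR1 at -2.04, the endocytic adaptor DAB2 at -2.01, PARP9 at -1.94 and the orphan receptor GPR171 at -1.93. Among long non-coding RNAs, LINC00861 had 13.8 and 16.1 CPM with ricolinostat, 46.1 and 59.6 CPM with romidepsin and 22.3 and 19.9 CPM with DMSO (log2 fold change -1.82 ± 0.16, adjusted p = 3.1e-07), while MIR22HG, the host transcript of a microRNA, was higher with ricolinostat at 0.85 ± 0.12 (adjusted p = 2.9e-09).

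**Figure D3:**
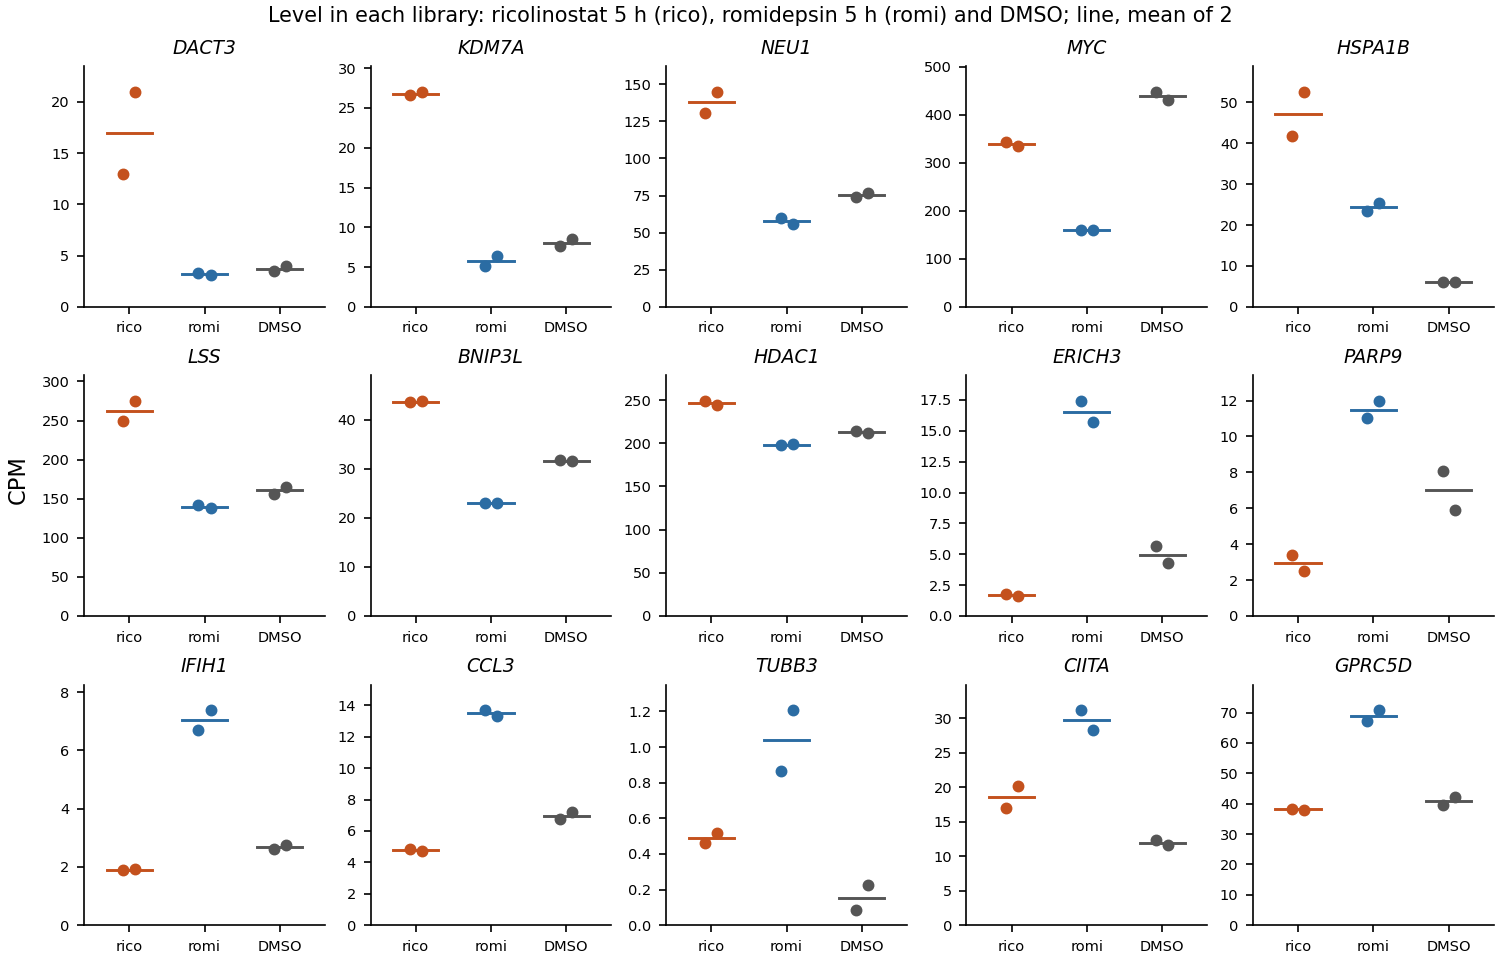
Each point is the level of 1 library in CPM, with ricolinostat 5 h, romidepsin 5 h and DMSO from left to right in each panel and a line at the mean of 2. In DACT3, KDM7A, NEU1, LSS and BNIP3L the ricolinostat points lie above romidepsin and DMSO, in ERICH3, PARP9, IFIH1 and CCL3 they lie below both, and MYC with ricolinostat lies between romidepsin and DMSO.

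Autophagy and lysosome genes, which make and feed the vesicles that degrade cell contents, leaned to ricolinostat. Of 32 tested members 27 were higher and 0 lower, with a median log2 fold change of 0.46, beside a median of 0.04 and 28.4% higher over all protein-coding genes. Among all genes of at least 50 CPM, 2505 of 5013 were higher, with a median of 0.127. Relative to DMSO under TMM scaling, 24 members rose and 1 fell with ricolinostat (median 0.29), whereas 3 rose and 13 fell with romidepsin (median -0.13). These counts over DMSO were not taken under other scalings, and the settings named next concern ricolinostat against romidepsin only. Over the scalings, tests and left-out libraries tried, the count of higher members stayed between 24 and 27 and that of lower members was 0 or 1. NEU1, the lysosomal sialidase, had 131 and 145 CPM with ricolinostat, 59.8 and 56 CPM with romidepsin and 74.2 and 76.9 CPM with DMSO. Ricolinostat was above and romidepsin below DMSO in each library, and the log2 fold change was 1.25 ± 0.05 (adjusted p = 1.4e-41). ULK1, the kinase that starts autophagosome formation, had 94.7 and 109 CPM with ricolinostat, 49.4 and 50 CPM with romidepsin and 47 and 51.3 CPM with DMSO, so the romidepsin and DMSO libraries overlapped (log2 fold change 1.03 ± 0.06, adjusted p = 2.6e-29). TFEB, the transcription factor that drives lysosomal genes, had 28.5 and 29.1 CPM with ricolinostat, 14.1 and 16.1 CPM with romidepsin and 20.1 and 21 CPM with DMSO (log2 fold change 0.94 ± 0.10, adjusted p = 6.2e-13). MAP1LC3B, the ubiquitin-like protein that coats autophagosomes, had 180 and 178 CPM with ricolinostat, 94.5 and 95.6 CPM with romidepsin and 109 and 106 CPM with DMSO (log2 fold change 0.91 ± 0.05, adjusted p = 4.4e-31). Lysosomal membrane and pump genes were also higher, among them MCOLN1, the calcium channel of lysosomes, at 0.83, the proton pump subunit ATP6V0D1 at 0.76 and LAMP1 at 0.42. The members that did not pass were ATG7, BECN1, CTSB, HEXA and NPC1, with log2 fold changes of -0.27, 0.02, 0.05, -0.11 and 0.15.

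Upstream sequences of 3 genes of this group are shown because each holds the E-box CACGTG, the palindrome bound by TFEB, MYC and related factors, written here in capitals. They are the 250 bases before the RefSeq gene start (GRCh38.p14), read 5′ to 3′ on the strand of the gene. They lie at chr6:31862822-31863071 (minus strand), chr13:113296989-113297238 (plus strand) and chr19:7522374-7522623 (plus strand).
NEU1: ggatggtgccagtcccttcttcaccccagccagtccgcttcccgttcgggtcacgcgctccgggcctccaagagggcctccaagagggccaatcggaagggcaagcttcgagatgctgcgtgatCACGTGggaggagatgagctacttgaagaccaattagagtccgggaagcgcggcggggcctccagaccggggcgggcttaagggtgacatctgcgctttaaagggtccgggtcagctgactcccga
LAMP1: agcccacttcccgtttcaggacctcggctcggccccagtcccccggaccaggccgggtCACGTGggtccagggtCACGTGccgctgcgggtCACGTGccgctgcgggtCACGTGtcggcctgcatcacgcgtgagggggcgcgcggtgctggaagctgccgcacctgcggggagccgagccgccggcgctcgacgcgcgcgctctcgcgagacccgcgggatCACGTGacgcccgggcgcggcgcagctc
MCOLN1: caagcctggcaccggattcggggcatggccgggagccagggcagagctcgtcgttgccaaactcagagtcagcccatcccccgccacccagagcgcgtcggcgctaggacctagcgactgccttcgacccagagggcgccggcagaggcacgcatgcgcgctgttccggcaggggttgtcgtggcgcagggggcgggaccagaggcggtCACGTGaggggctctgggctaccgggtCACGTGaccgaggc
NEU1 has 1 match, LAMP1 has 5 and MCOLN1 has 2. In windows of 300 bases that add 50 bases after the start, 7 of the 24 autophagy and lysosome genes with a promoter entry held CACGTG, and 7.43% of all 27305 promoters did. All 7 of these genes were higher with ricolinostat, as were 14 of the 17 without a match, with median log2 fold changes of 0.63 and 0.53. This search was added to the list after its values were seen, and a match is a description of letters only.

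MYC, the growth-promoting transcription factor, fell less with ricolinostat than with romidepsin. It had 344 and 335 CPM with ricolinostat, 160 and 159 CPM with romidepsin and 448 and 432 CPM with DMSO. The 3 groups did not overlap, and the log2 fold change was 1.09 ± 0.04 (adjusted p = 5.7e-39), with changes of -0.37 for ricolinostat and -1.46 for romidepsin over DMSO. Of 12 tested members of the MYC and MAX network, MYC included, 10 were higher with ricolinostat and 0 lower, median 0.61. With library size alone 8 were higher and 1 lower, and without ricolinostat replicate 1 there were 8 and 0. Relative to DMSO, 4 rose and 4 fell with ricolinostat (median 0.30), and 2 rose and 7 fell with romidepsin (median -0.20). MXD1, a MAX partner that represses MYC targets, had 15.8 and 23.2 CPM with ricolinostat, 10.3 and 9.51 CPM with romidepsin and 11 and 9.88 CPM with DMSO (log2 fold change 0.96 ± 0.11, adjusted p = 8.7e-12). MNT, another such repressor, had 26.5 and 26.2 CPM with ricolinostat, 14.6 and 15.8 CPM with romidepsin and 37.3 and 37.2 CPM with DMSO (log2 fold change 0.80 ± 0.10, adjusted p = 8.6e-12). The repressor MXI1 was higher at 0.77 and MAX itself at 0.45. The higher members thus include MYC as well as partners known to oppose it.

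Ribosome biogenesis genes, many of them MYC targets, had 31 of 48 members higher with ricolinostat and 4 lower, median 0.18. Their count is less settled, since without ricolinostat replicate 1 there were 15 higher and 6 lower, with library size alone 17 and 7, and without romidepsin replicate 2 there were 19 and 4. Relative to DMSO, 5 rose and 24 fell with ricolinostat (median -0.16), and 0 rose and 42 fell with romidepsin (median -0.31). RRP9, a protein of the U3 snoRNA particle, had 64 and 64.6 CPM with ricolinostat, 39 and 39.2 CPM with romidepsin and 61.3 and 60.1 CPM with DMSO (log2 fold change 0.72 ± 0.07, adjusted p = 2.4e-16). NOP16 had 31.5 and 30 CPM with ricolinostat, 21.5 and 19.9 CPM with romidepsin and 40.3 and 37.2 CPM with DMSO (log2 fold change 0.57 ± 0.10, adjusted p = 6.3e-07). In RRP9 ricolinostat lay just above DMSO, and in NOP16 it lay below DMSO and above romidepsin. CACGTG was found in the window of 17 of 41 members with an entry, 12 of which were higher, as were 13 of the 24 without it.

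Class I HDAC genes were higher with ricolinostat and HDAC6 was lower. Of the 4 class I genes 3 were higher with ricolinostat and 0 lower in every setting tried. HDAC1 had 249 and 245 CPM with ricolinostat, 198 and 199 CPM with romidepsin and 215 and 212 CPM with DMSO (log2 fold change 0.31 ± 0.04, adjusted p = 9.7e-10). HDAC2 had 212 and 189 CPM with ricolinostat, 163 and 155 CPM with romidepsin and 187 and 187 CPM with DMSO (log2 fold change 0.33 ± 0.05, adjusted p = 2.9e-09). HDAC3 was higher too, at 0.38 ± 0.07 (adjusted p = 4.9e-06). HDAC6, the enzyme that ricolinostat prefers, went the other way, with 48.2 and 50.1 CPM with ricolinostat, 61.9 and 60.1 CPM with romidepsin and 70.5 and 67.8 CPM with DMSO (log2 fold change -0.31 ± 0.06, adjusted p = 1.0e-05). It fell relative to DMSO with both inhibitors. Of the 14 other HDAC and sirtuin genes 8 were higher and 3 lower. The highest log2 fold changes were in the low genes HDAC10, at 1.84 ± 0.37 (adjusted p = 8.5e-06), and SIRT4, at 1.22 ± 0.32 (adjusted p = 7.3e-04). HDAC11 had 6.08 and 6.08 CPM with ricolinostat, 2.56 and 2.92 CPM with romidepsin and 3.73 and 2.8 CPM with DMSO (1.15 ± 0.21, adjusted p = 1.5e-06), and HDAC9 was lower at -0.60.

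Subunits of the corepressor complexes had 19 of 30 members higher with ricolinostat and 5 lower, median 0.31, and 14 and 5 without ricolinostat replicate 1. SIN3A, the scaffold of the SIN3 complex, had 197 and 200 CPM with ricolinostat, 104 and 96.8 CPM with romidepsin and 161 and 153 CPM with DMSO. The ricolinostat libraries lay above DMSO and the romidepsin libraries below it (log2 fold change 0.98 ± 0.05, adjusted p = 1.2e-33). SIN3-complex partners were among the higher members, with SAP30L at 0.74, ING2 at 0.72, SUDS3 at 0.63, BRMS1 at 0.61 and SAP30 at 0.47. The 5 lower members were TBL1XR1 at -0.46, MTA3 at -0.55, MBD3 at -0.44, CHD3 at -0.25 and RBBP4 at -0.13. Histone acetyltransferases, the opposing enzymes, had 5 of 15 higher and 6 lower, or 3 and 6 with library size alone, with HAT1 at 0.45 and KAT6B at -0.79. KAT6B had 27.2 and 26.2 CPM with ricolinostat, 49.1 and 42.7 CPM with romidepsin and 89 and 91.8 CPM with DMSO, so it fell with both inhibitors and further with ricolinostat. BET readers and P-TEFb genes had 4 of 17 higher (23.5%) and 3 lower (17.6%), near the shares over all protein-coding genes, or 4 and 7 with library size alone. HEXIM1, the P-TEFb inhibitor, did not pass, at -0.25 (95% interval -0.56 to 0.06).

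Heat shock chaperones had 21 of 33 members higher with ricolinostat and 4 lower, median 0.27, and between 17 and 22 higher over the settings tried. Relative to DMSO under TMM scaling, the only one taken for this, 18 rose and 2 fell with ricolinostat, and 10 rose and 18 fell with romidepsin. HSPA1B, the stress-inducible HSP70, had 41.7 and 52.5 CPM with ricolinostat, 23.5 and 25.3 CPM with romidepsin and 6.01 and 6.04 CPM with DMSO. It rose with both inhibitors and was higher with ricolinostat by 0.95 ± 0.08 on the log2 scale (adjusted p = 1.1e-19). Its near-identical copy HSPA1A had a log2 fold change of 1.00 ± 0.22 (adjusted p = 6.3e-05), and how reads shared by the copies were counted is not known. DNAJB1, the HSP40 partner of HSP70, had 228 and 236 CPM with ricolinostat, 133 and 128 CPM with romidepsin and 96.3 and 94 CPM with DMSO (log2 fold change 0.83 ± 0.04, adjusted p = 4.9e-31). HSPH1, an HSP70 exchange factor, had 212 and 218 CPM with ricolinostat, 128 and 125 CPM with romidepsin and 149 and 155 CPM with DMSO, above DMSO with ricolinostat and below it with romidepsin (log2 fold change 0.76 ± 0.05, adjusted p = 8.2e-27). The constitutive HSPA8 was higher at 0.27 and the HSP90 gene HSP90AA1 at 0.19. The 4 lower members were HSPA2, HSPA4L, HSPA13 and DNAJB4, at -0.51, -0.79, -0.23 and -0.42.

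The promoters of HSPA1B and HSPA8 are shown because they hold the core heat shock element GAANNTTC, in capitals, to which HSF1 binds. They are the 250 bases before the RefSeq gene start (GRCh38.p14), 5′ to 3′ on the strand of the gene, at chr6:31827488-31827737 (plus strand) and chr11:123062137-123062386 (minus strand).
HSPA1B: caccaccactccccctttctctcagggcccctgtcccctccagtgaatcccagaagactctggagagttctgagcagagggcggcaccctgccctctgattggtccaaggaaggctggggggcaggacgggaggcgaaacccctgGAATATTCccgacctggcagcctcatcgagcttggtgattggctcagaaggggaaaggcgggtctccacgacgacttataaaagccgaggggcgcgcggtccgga
HSPA8: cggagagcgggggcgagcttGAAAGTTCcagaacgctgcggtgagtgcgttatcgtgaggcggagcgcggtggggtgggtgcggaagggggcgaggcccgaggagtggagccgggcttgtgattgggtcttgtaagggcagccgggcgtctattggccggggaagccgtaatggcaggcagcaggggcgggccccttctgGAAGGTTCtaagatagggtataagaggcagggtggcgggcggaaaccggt
The motif was searched on both strands and is its own reverse complement. It was found in the 300-base window of 11 of the 30 chaperone genes with an entry and of 6.87% of all promoters. Of these 11 genes 8 were higher with ricolinostat, and of the 19 without it 10 were, with medians of 0.47 and 0.16. The metal response element TGCGCNC or TGCACNC was found in 3 of 5 metallothionein and zinc-handling genes, beside 29.4% of all promoters, and the sterol element TCACNCCAC in 1 of 27 sterol and fatty acid genes, beside 1.15%.

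Folding genes of the endoplasmic reticulum had 14 of 23 members higher with ricolinostat and 2 lower, median 0.18, with 8 and 3 without ricolinostat replicate 1 and 11 and 6 with library size alone. SYVN1, the ubiquitin ligase of ER-associated degradation, had 166 and 188 CPM with ricolinostat, 105 and 103 CPM with romidepsin and 107 and 110 CPM with DMSO (log2 fold change 0.77 ± 0.05, adjusted p = 6.0e-26). CALR, the chaperone calreticulin, had 712 and 720 CPM with ricolinostat, 531 and 507 CPM with romidepsin and 562 and 566 CPM with DMSO (log2 fold change 0.46 ± 0.04, adjusted p = 1.0e-20). In both genes the ricolinostat libraries were above the other 4. Proteasome subunits had 20 of 31 higher and 0 lower, median 0.14, but 9 higher and 3 lower without ricolinostat replicate 1 and 12 and 2 with library size alone. The regulatory subunit PSMD2 led them, at 0.48 ± 0.04 (adjusted p = 6.1e-21). Integrated stress response genes split evenly, 7 of 27 each way, with GPT2 at 0.67, ATF5 at -1.06, SLC7A11 at -0.88 and ATF3 at -0.71, and aminoacyl-tRNA synthetases had 10 of 20 higher and 4 lower, or 5 and 5 without ricolinostat replicate 1.

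Sterol and fatty acid synthesis genes had 20 of 34 members higher with ricolinostat and 2 lower, median 0.27, with 17 to 20 higher over the settings tried. LSS, lanosterol synthase, had 249 and 275 CPM with ricolinostat, 141 and 138 CPM with romidepsin and 156 and 165 CPM with DMSO (log2 fold change 0.90 ± 0.04, adjusted p = 9.5e-33). NSDHL, which acts later in cholesterol synthesis, had 47.2 and 49 CPM with ricolinostat, 28.9 and 27.6 CPM with romidepsin and 39.4 and 37.6 CPM with DMSO (log2 fold change 0.77 ± 0.07, adjusted p = 1.1e-15). HMGCS1, at the start of the mevalonate pathway, was higher at 0.62 ± 0.06 (adjusted p = 2.0e-14). Glucose transporter and glycolysis genes had 17 of 24 higher and 1 lower, median 0.23, and 12 and 1 without ricolinostat replicate 1. SLC2A8, an intracellular glucose transporter, had 29.2 and 29.2 CPM with ricolinostat, 14.7 and 14.7 CPM with romidepsin and 21.6 and 20.9 CPM with DMSO (log2 fold change 0.99 ± 0.10, adjusted p = 3.7e-15). SLC2A4, the insulin-responsive transporter, was low, with 2.31 and 2.34 CPM with ricolinostat, 0.118 and 0.788 CPM with romidepsin and 0.339 and 0.149 CPM with DMSO (log2 fold change 2.42 ± 0.40, adjusted p = 9.2e-09). Its ricolinostat libraries lay above the other 4, while romidepsin and DMSO overlapped. The lower member was TXNIP, an inhibitor of glucose uptake, at -0.28.

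Pro-apoptotic members of the BCL2 family had 7 of 13 higher with ricolinostat and 1 lower, median 0.38, and 6 or 7 higher over the settings tried. BNIP3L, a mitophagy receptor, had 43.5 and 43.8 CPM with ricolinostat, 23 and 23 CPM with romidepsin and 31.8 and 31.5 CPM with DMSO (log2 fold change 0.93 ± 0.08, adjusted p = 1.2e-18). BMF, a BH3-only protein, had 73.5 and 77.8 CPM with ricolinostat, 53.3 and 50.1 CPM with romidepsin and 90.9 and 89.8 CPM with DMSO, so both inhibitors lowered it and romidepsin further (log2 fold change 0.55 ± 0.06, adjusted p = 2.2e-13). BCL2L11, encoding BIM, had 62 and 60.7 CPM with ricolinostat, 44.2 and 43.4 CPM with romidepsin and 58.1 and 57.4 CPM with DMSO (log2 fold change 0.49 ± 0.06, adjusted p = 7.9e-11). The effector genes BAX and BAK1 were higher at 0.38 and 0.32, and the lower member was PMAIP1, encoding NOXA, at -0.47. Anti-apoptotic genes leaned the other way, with 1 of 10 higher and 5 lower, median -0.11. CFLAR, the caspase-8 inhibitor, had 32.3 and 28.8 CPM with ricolinostat, 50 and 49.7 CPM with romidepsin and 45.2 and 45.8 CPM with DMSO (log2 fold change -0.70 ± 0.08, adjusted p = 1.3e-12). XIAP was lower at -0.49, BCL2 at -0.32 and MCL1, the main survival factor of myeloma cells, at -0.12, and BIRC6 was higher at 0.21.

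Genes of the interferon response, the antiviral programme, leaned to romidepsin. Of 32 tested members 2 were higher with ricolinostat and 13 lower, beside 17.3% lower over all protein-coding genes, with a median log2 fold change of -0.50. Because 5 members had no count in a group, the median was also taken with those at a bound of 3 counts and without the 2 at or under that floor in both groups, which gave -0.52, and the 21 members of at least 1 CPM gave -0.62. Relative to DMSO, 9 rose and 4 fell with ricolinostat, and 10 rose and 1 fell with romidepsin. PARP9, an interferon-induced member of the PARP family, had 3.38 and 2.53 CPM with ricolinostat, 11 and 12 CPM with romidepsin and 8.09 and 5.93 CPM with DMSO (log2 fold change -1.94 ± 0.19, adjusted p = 4.7e-16). IFIH1, the double-stranded RNA sensor MDA5, had 1.88 and 1.92 CPM with ricolinostat, 6.71 and 7.37 CPM with romidepsin and 2.63 and 2.76 CPM with DMSO (log2 fold change -1.88 ± 0.24, adjusted p = 2.9e-11). In both genes ricolinostat was the lowest of the 3 groups and romidepsin the highest. SAMD9L, an antiviral restriction factor, had 50.4 and 50.2 CPM with ricolinostat, 76.7 and 79.4 CPM with romidepsin and 42.5 and 44.9 CPM with DMSO (log2 fold change -0.63 ± 0.07, adjusted p = 1.0e-13). PARP14 was lower at -1.07 and SAMD9 at -0.62, while the 2 higher members were STAT2 at 0.31 and BST2 at 0.38.

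Plasma cell and myeloma genes had 6 of 32 members higher with ricolinostat and 11 lower, median -0.15, and 4 and 10 without ricolinostat replicate 1. IRF4, the plasma cell factor on which myeloma depends, had 1247 and 1268 CPM with ricolinostat, 925 and 920 CPM with romidepsin and 1767 and 1736 CPM with DMSO (log2 fold change 0.45 ± 0.03, adjusted p = 7.0e-21). PRDM1, encoding BLIMP1, had 449 and 456 CPM with ricolinostat, 377 and 358 CPM with romidepsin and 516 and 514 CPM with DMSO (log2 fold change 0.30 ± 0.04, adjusted p = 1.3e-09). Both factors fell with each inhibitor and less with ricolinostat. Relative to DMSO under TMM scaling, 1 of the 32 members rose and 23 fell with ricolinostat (median -0.34). With romidepsin 4 rose and 16 fell (median -0.18). CCND3, a G1 cyclin, had 106 and 118 CPM with ricolinostat, 68 and 66.6 CPM with romidepsin and 55.1 and 58 CPM with DMSO (log2 fold change 0.73 ± 0.06, adjusted p = 8.2e-21). The lower members included surface receptors and Ikaros factors. GPRC5D, a target of myeloma immunotherapy, had 38.3 and 38 CPM with ricolinostat, 67.2 and 70.7 CPM with romidepsin and 39.6 and 42.3 CPM with DMSO, so it rose with romidepsin relative to DMSO and did not pass with ricolinostat (log2 fold change -0.85 ± 0.07, adjusted p = 5.6e-19). CD28 was lower at -0.58 ± 0.05 (adjusted p = 1.1e-18) and IKZF3, encoding Aiolos, at -0.54 ± 0.06 (adjusted p = 3.7e-13). TNFRSF17, encoding BCMA, was lower at -0.16 and IKZF1 at -0.15, and both calls were lost without ricolinostat replicate 2, at -0.08 each, and that of IKZF1 also without romidepsin replicate 1. Between the inhibitors the translocation targets differed little, with FGFR3 higher at 0.22 ± 0.03 (adjusted p = 3.3e-08) and NSD2 not passing at 0.08 (95% interval 0.01 to 0.14). With the DMSO libraries included, FGFR3 ran from 1934 to 3551 CPM, a wider range than that difference, and NSD2 from 2080 to 2519 CPM.

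Inflammatory and antigen-presentation genes were mixed. CCL3, a chemokine by which myeloma cells act on bone, had 4.85 and 4.73 CPM with ricolinostat, 13.7 and 13.4 CPM with romidepsin and 6.73 and 7.23 CPM with DMSO (log2 fold change -1.5 ± 0.17, adjusted p = 3.3e-13). NFKB2, the precursor of the p52 subunit, went the other way, with 109 and 118 CPM with ricolinostat, 50.5 and 50.2 CPM with romidepsin and 53.8 and 52 CPM with DMSO (log2 fold change 1.17 ± 0.06, adjusted p = 2.6e-34). The list of NF-kB subunits and feedback genes had 6 of 18 higher (33.3%) and 4 lower (22.2%), or 6 and 5 with library size alone. These shares were near the 28.4% and 17.3% over all protein-coding genes. That of chemokines and receptors had 1 of 8 higher and 4 lower. Its median log2 fold change was -0.32, and -0.42 without ricolinostat replicate 1. CIITA, the master regulator of MHC class II, had 17 and 20.1 CPM with ricolinostat, 31.1 and 28.2 CPM with romidepsin and 12.3 and 11.6 CPM with DMSO (log2 fold change -0.68 ± 0.10, adjusted p = 3.1e-08). It rose with both inhibitors, and of the 13 class II genes tested 0 were higher and 3 lower with ricolinostat, most of them under 1 CPM. HLA-DRA was lower at -0.40, a call lost without ricolinostat replicate 2 at -0.27. MHC class I and peptide-loading genes had 6 of 19 higher and 5 lower, a balance that turned to 4 and 8 with library size alone and to 2 and 7 without ricolinostat replicate 1. Histone genes had 2 of 15 higher and 6 lower, among them H2BC21 at -0.89 and the linker histone H1-2 at -0.73, while both H3.3 genes, H3-3A at 0.11 and H3-3B at 0.22, were the higher ones. Only 1 histone gene was higher with library size alone, with 7 lower, and only 1 with DESeq2-type size factors or with DESeq2, with 6 lower. The histone median was -0.43 over all 15 and -0.02 over the 12 of at least 1 CPM.

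Growth genes differed little and depended on scaling. Cytosolic ribosomal protein genes had 24 of 53 higher with ricolinostat and 0 lower at a median of 0.09, but 0 higher and 3 lower with library size alone, and 0 higher and 1 lower without ricolinostat replicate 1. Nuclear oxidative phosphorylation genes had 15 of 41 higher and 1 lower, but 4 and 4 with library size alone and 3 and 3 without ricolinostat replicate 1. Mitosis genes had 16 of 35 higher and 5 lower, which turned to 8 and 11 with library size alone and to 5 and 9 without ricolinostat replicate 1. DNA replication genes had 14 of 44 higher and 12 lower, or 9 and 17 with library size alone and 8 and 14 without ricolinostat replicate 1. Of the 13 mitochondrially encoded mRNAs 0 passed, and mitochondrial genes took 4.09% and 4.42% of counts with ricolinostat and 4.42% and 4.68% with romidepsin. Within these lists CCNE1, which drives S phase entry, kept a clear difference, with 51.9 and 53 CPM with ricolinostat, 29.7 and 26.7 CPM with romidepsin and 30.1 and 33.1 CPM with DMSO (log2 fold change 0.89 ± 0.08, adjusted p = 3.7e-17). CDC20, the activator of the anaphase-promoting complex, was higher at 0.36 ± 0.04 (adjusted p = 4.6e-12) and GINS3 lower at -0.58 ± 0.10 (adjusted p = 1.2e-06).

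CDK inhibitors and p53 targets had 9 of 25 higher and 6 lower, a balance that turned to 7 and 8 with library size alone. CDKN1A, the p21 gene often raised by HDAC inhibitors, had 47.8 and 55.2 CPM with ricolinostat, 48.5 and 50.5 CPM with romidepsin and 55.6 and 54.1 CPM with DMSO. It did not pass, at a log2 fold change of 0.05 (95% interval -0.06 to 0.17), and neither inhibitor lay above DMSO in mean level. CDKN2B, encoding p15, had 12.3 and 14.7 CPM with ricolinostat, 31.8 and 31.2 CPM with romidepsin and 6.82 and 6.19 CPM with DMSO (log2 fold change -1.23 ± 0.10, adjusted p = 2.7e-20). It rose with both and further with romidepsin. AEN, an exonuclease induced by p53, was higher at 0.62, and CCND2, the D-type cyclin, did not pass at 0.04 (95% interval -0.05 to 0.12), with 370 and 337 CPM with ricolinostat, 355 and 336 CPM with romidepsin and 579 and 566 CPM with DMSO.

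Immediate-early factors had 12 of 36 higher (33.3%) and 6 lower (16.7%), near the shares over all protein-coding genes, or 10 and 8 with library size alone. NR4A2, an orphan nuclear receptor, had 2.65 and 2.57 CPM with ricolinostat, 6.71 and 5.89 CPM with romidepsin and 1.78 and 2.57 CPM with DMSO (log2 fold change -1.27 ± 0.17, adjusted p = 3.5e-10). DUSP2, a phosphatase of MAP kinases, had 11.6 and 10.1 CPM with ricolinostat, 6.74 and 6.31 CPM with romidepsin and 26.8 and 25.6 CPM with DMSO, so it fell with both and further with romidepsin (log2 fold change 0.74 ± 0.12, adjusted p = 5.5e-08). EGR1 did not pass, at -0.51 (95% interval -1.06 to 0.05). Tubulin isotypes had 4 of 17 higher (23.5%) and 2 lower (11.8%), both under the shares over all protein-coding genes, or 4 and 4 with library size alone. TUBB4B was higher at 0.52 ± 0.04 (adjusted p = 1.9e-22), and TUBB3, the neuronal beta tubulin, had 0.462 and 0.515 CPM with ricolinostat, 0.868 and 1.21 CPM with romidepsin and 0.0847 and 0.224 CPM with DMSO (log2 fold change -1.07 ± 0.37, adjusted p = 0.014), a call lost without ricolinostat replicate 1, without romidepsin replicate 2 and when only these 4 libraries were fitted. Neuronal and synaptic genes had 4 of 21 each way. Polycomb and DNA methylation genes had 6 of 16 each way, or 4 and 7 with library size alone and 3 and 6 without ricolinostat replicate 1, with PHF1 at 0.77 and PHF19, both partners of Polycomb complex PRC2, at -0.72. Ligands of natural killer receptors had 2 of 10 each way, or 1 each way without ricolinostat replicate 1, with NECTIN2 at 1.08 and PVR at -0.23. The metal-binding gene MT2A did not pass, at 0.23 (95% interval -0.36 to 0.82), though it passed at 0.52 without ricolinostat replicate 1. Of 6 metallothionein and zinc-handling genes 3 were higher and 1 lower, and the lower one, the zinc importer SLC39A10, had 40.7 and 34.1 CPM with ricolinostat, 70 and 72.8 CPM with romidepsin and 101 and 103 CPM with DMSO (log2 fold change -0.93 ± 0.07, adjusted p = 4.7e-21).

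**Figure D4:**
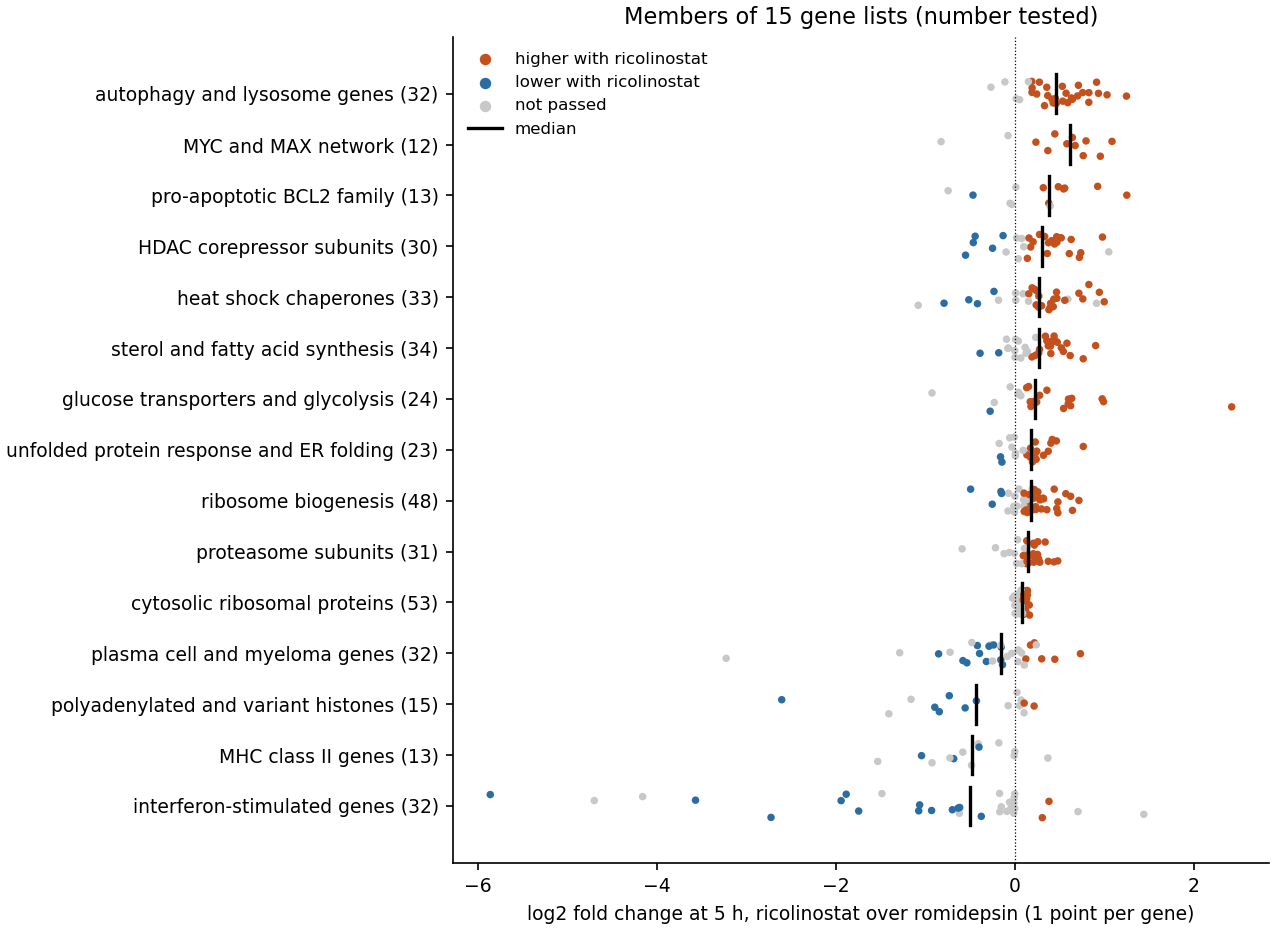
Each point is a tested gene of a list, placed by its log2 fold change at 5 h, ricolinostat over romidepsin, and coloured by its call, with a bar at the list's median. Medians run from 0.61 in the MYC and MAX network and 0.46 in autophagy and lysosome genes to -0.50 in interferon-stimulated genes, and the narrow cluster of ribosomal proteins, 24 higher here, has 0 higher and 3 lower with library size alone.

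The difference between the inhibitors changed with time for many genes. From 2 h to 5 h the difference changed for 2331 genes (11.1%) and from 5 h to 20 h for 10619 (50.7%), by tests of the interaction in the same edgeR model. Both interactions use the 5 h libraries. The first is less settled, since the 1205 genes whose signed difference moved toward ricolinostat at 5 h became 657 without romidepsin replicate 2 of 2 h, 739 without ricolinostat replicate 2 of 2 h, 740 without ricolinostat replicate 1 of 5 h and 739 without romidepsin replicate 2 of 5 h. At 2 h, 3478 genes were higher with ricolinostat (16.6%) and 2729 lower (13%), and at 20 h 6108 were higher (29.1%) and 6930 lower (33.1%). Autophagy and lysosome genes had 24 of 32 higher and 1 lower at 2 h (median 0.36), but 7 higher and 18 lower at 20 h (median -0.21), and the difference moved down from 5 h to 20 h in 22 of them. NEU1 had a log2 fold change between the inhibitors of 1.0 at 2 h, 1.25 at 5 h and -3.03 at 20 h. Heat shock chaperones had 20 of 33 higher and 2 lower at 2 h and 12 and 17 at 20 h, and HSPA1B had 1.39, 0.95 and -2.5 at 2, 5 and 20 h.

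Interferon-stimulated, plasma cell and growth genes had their largest list medians at 20 h. Interferon-stimulated genes had 4 of 32 higher and 4 lower at 2 h (median 0.01), and 3 higher and 22 lower at 20 h (median -1.56), and 7 of them had a lower difference at 5 h than at 2 h. MYC had a log2 fold change of -0.16 at 2 h, 1.09 at 5 h and 3.99 at 20 h. Plasma cell and myeloma genes had 3 of 32 higher and 18 lower at 2 h and 22 higher and 7 lower at 20 h, with the difference moving up from 5 h to 20 h in 23. Ribosome biogenesis genes had 46 of 48 higher at 20 h (median 1.10) and mitosis genes 30 of 35 (median 0.68). BCL2L11 had a log2 fold change of 1.14 at 2 h, 0.49 at 5 h and -1.7 at 20 h, and both steps passed the interaction test.

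**Figure D5:**
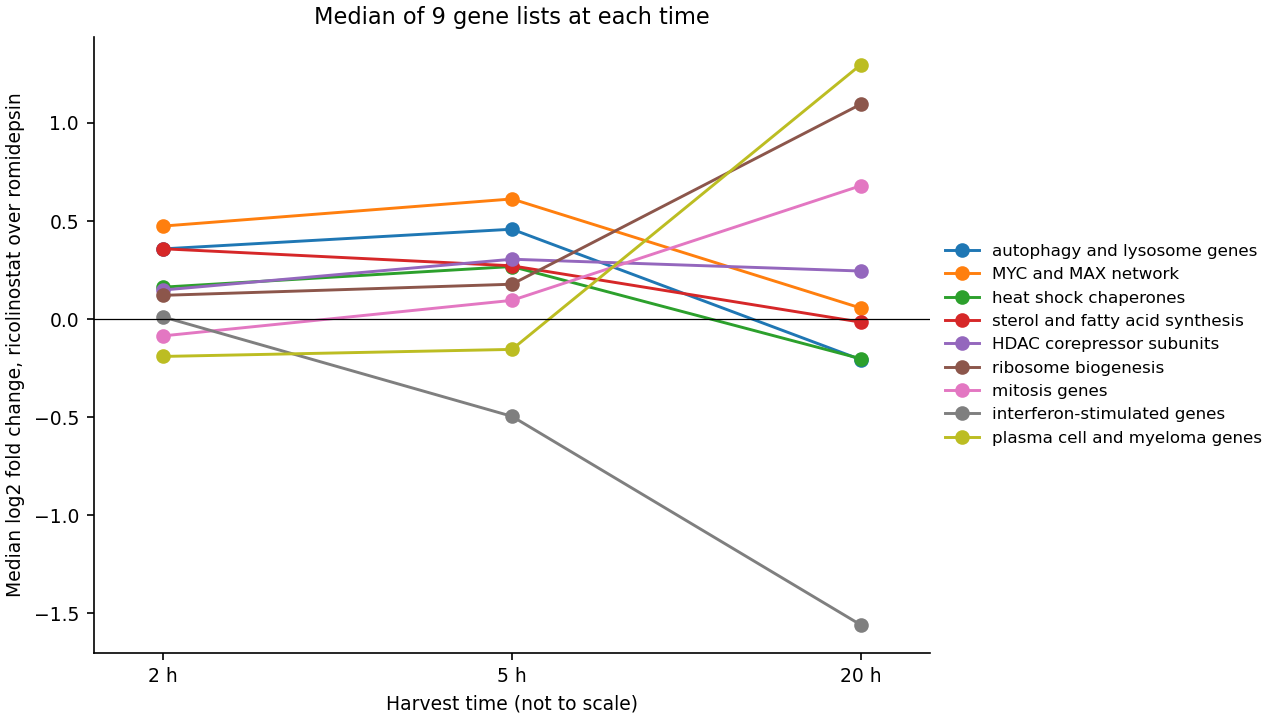
Points give the median log2 fold change, ricolinostat over romidepsin, over the tested members of 9 lists at 2, 5 and 20 h, with lines joining the times of 1 list. Autophagy and lysosome genes stand at 0.36, 0.46 and -0.21, interferon-stimulated genes at 0.01, -0.50 and -1.56, and plasma cell genes at -0.19, -0.15 and 1.30. The mitosis median at 5 h, 0.10, is 0.00 with library size alone.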

How the data were processed

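Gene counts came from 20 libraries of OPM2 cells, 2 per group, made from poly(A) RNA with strand-specific preparation and paired reads of 100 bases, per the labels. The submitters' processing notes name HISAT2, SAMtools, featureCounts and the build GRCh38. Not given in the sources used here are the release of the gene annotation, how strand was set in counting, and if a read or a pair was the unit. The deposited values are raw counts per gene, with no normalization by the authors. Of 78932 identifiers 42206 had a symbol in the name table and 57356 were in GENCODE 29, from which gene type and span were taken.

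All 20 libraries were fitted in edgeR 4.0.16 (R 4.3.3) with a term per group, TMM scaling, filterByExpr with a minimum count of 10 and the robust quasi-likelihood F test. P-values were adjusted by Benjamini and Hochberg over the 20957 genes of each contrast at a threshold of 0.05. CPM use TMM-scaled library sizes. The common biological coefficient of variation was 0.0419. Simulated counts (20490 genes) gave both 5 h groups the same means, except for 67, 67 and 66 genes changed by 1.5, 2 and 4-fold. The test recovered 53.7%, 59.7% and 66.7% of these. From 5 CPM upward it recovered 94.6%, 100% and 100%. In the real comparison 33.8% of genes passed and the ricolinostat replicates differed more than most pairs. The simulation had few changed genes and a spread per gene shared by all groups, so these rates need not hold for the real comparison.

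Alternatives were DESeq2-type size factors, library size only, no filter, DESeq2 1.42.0, a fit of only the groups compared, a replicate block and leaving out each library. Members, lists and tests were chosen with earlier results of these data known. Named were the 10 largest rises and 10 largest falls among protein-coding genes that passed, reached 5 CPM and had libraries that did not overlap, up to 4 members per list with the largest change, a panel of 22 genes, the 3 largest of each direction in each interaction and among long non-coding RNAs. Other genes in the text, such as further list members, were chosen after their values were seen. Results of some genes that this rule names are not reported here. HSPA1A and HSPA1B are near-identical and their split is uncertain.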

Additional observations from a re-analysis of the deposited data

Results flagged for a closer look

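The difference between ricolinostat and romidepsin was itself tested between times, and the genes in this section were brought up by that test of the difference, in edgeR's quasi-likelihood model with adjusted p-values. Between 2 h and 5 h it changed for 2331 genes. Its log2 difference, 5 h minus 2 h, was -2.92 for ERICH3, -1.95 for OTOGL and -2.00 for NR4A2, so these genes moved toward romidepsin. It was 1.62 for the zinc finger gene ZNF653, 1.70 for the homeobox gene MSX1 and 1.71 for the zinc finger gene ZNF784.

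Between 5 h and 20 h it changed for 10619 genes. The log2 difference, 20 h minus 5 h, was 6.0 for WDR72, 6.75 for AFAP1L2 and 5.90 for MEI1. CEACAM20 passed with an adjusted p-value of 3.7e-05, and no fold is given for it because a 5 h group had no count. Its call was lost without ricolinostat replicate 1 of 5 h.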

How the results depend on the processing

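The 4021 genes higher and 3054 lower with ricolinostat than with romidepsin at 5 h became 3762 and 3235 with DESeq2-type size factors, 2928 and 4198 with library size only, 3362 and 2830 with no filter, 3549 and 2788 with DESeq2, and 3582 and 3174 when only these 4 libraries were fitted. With the replicate block there were 4019 and 2988. The deviations of same-numbered ricolinostat and romidepsin libraries correlated at 0.0167 over all tested genes. Of these genes 7294 were under 1 CPM, where counting noise is large, so the value cannot show that the samples were unpaired. Leaving out 1 library gave 2737 to 3335 higher and 2493 to 3003 lower genes, and 187 to 256 and 680 to 853 of at least 2-fold. The same step gave 2466 to 2879 higher and 2830 to 4036 lower for ricolinostat over DMSO, and 1878 to 2140 and 2732 to 3265 for romidepsin over DMSO. It gave 657 to 944 signed differences that moved toward ricolinostat and 757 to 1063 toward romidepsin from 2 h to 5 h, and 5423 to 5849 and 4287 to 4674 from 5 h to 20 h. With library size only, romidepsin over DMSO had 4212 genes higher and 1699 lower, and with no filter 758 signed differences moved toward ricolinostat from 2 h to 5 h. The cause was not tested. Of 195 values for named genes, 184 kept their call and direction with library size only and 11 lost the call, and 191 kept them with DESeq2. CD48, a natural killer receptor ligand, reversed without ricolinostat replicate 1, and without single libraries its log2 fold change was -0.014 to 0.16. Depth limits genes of few counts, and with 2 libraries per group a missed threshold does not show that levels were equal.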
